A study of Bos taurus with 24 samples.

Results

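The miR-2284 and miR-2285 family was followed in small RNA libraries of the bovine mammary gland. Its members were chosen by name alone: every row of the deposited count tables whose name begins with bta-miR-2284 or bta-miR-2285, with any letter, copy or arm suffix. The rule took 113 of the 796 rows (14.2%), of which 21 were named miR-2284 and 92 miR-2285. Each row is a mature miRNA as the authors listed it, a letter marks a member, and 9 rows also carried the suffix 5p or 3p for the arm of the hairpin.

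MicroRNAs (miRNAs) are short RNAs cut from a hairpin precursor that, within an Argonaute protein, pair with mRNAs and lower their stability or translation. Most miRNAs studied in the mammary gland are shared by mammals, whereas miR-2284 and miR-2285 are known as large families of ruminants, with many closely related genes spread over the bovine genome. Near-identical members make it hard to assign a short read to one gene, and the targets of most members have not been established.

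Midlactation Holstein (HOLS) and Montbéliarde (MONT) cows were biopsied while they ate freely (CONT) and again after 6 days of feed restriction (REST). The labels set the restriction at 60% of the net energy of lactation, and the methods of the study give a lower share. The deposited tables held 1 library per cow and period, that is 5 CONT and 5 REST libraries of HOLS and 6 CONT and 6 REST libraries of MONT, and a further HOLS cow of the labels was not analysed here. A biopsy holds several cell types, and in such bulk libraries fewer cells of a type and less RNA per cell cannot be told apart. Totals ranged from 6087865 to 18913916 counts per library, so that 3 counts, the limit used for a row at 0, stood for 0.159 to 0.493 counts per 1e6 counts of the library (CPM). Of 10 miRNAs taken as markers of mammary epithelium, 9 were counted in every library, and their summed level was 16086 to 60182 CPM, whereas the liver marker miR-122 did not exceed 0.257 CPM. Levels below are CPM on library sizes scaled with TMM, the edgeR factor that aligns the bulk of miRNAs between libraries.

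Of the 113 family rows, each had at least 1 count in at least 1 library, and 2 of them carried most of the family. MiR-2284x had a mean of 342 CPM over the 22 libraries, ranked 77 among all 796 rows and made up 55.7% of the summed mean level of the family. MiR-2285t followed with 150 CPM, rank 107 and 24.4%. The next row, miR-2285k, was already far lower at 20.4 CPM, and only miR-2284z (15.8 CPM) and miR-2284ab (11.6 CPM) also exceeded 10 CPM. MiR-2284y had 9.10 CPM, the rows miR-2285q and miR-2285z had 8.51 CPM each, and miR-2285bm (4.53 CPM) and miR-2285o (4.26 CPM) completed the 10 most abundant. These 10 rows made up 93.6% of the family level, and 23 rows reached a mean of 1 CPM.

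The rest of the family was close to the limit of counting. In 79 rows the highest count in any library was between 1 and 9, in 29 of these it was 1, and 12 rows were counted in a single library. At least 10 counts in every library were found for 14 rows (12.4%). Among the other rows with numbers of the series used for cattle, from miR-2286 to miR-2490 and from miR-2881 to miR-2904, 5 of 138 rows (3.62%) reached this mark, and among all other rows 260 of 545 (47.7%). The median row had a mean of 0.0826 CPM in the family, 0.0487 CPM in the other cattle-numbered miRNAs and 2.81 CPM in all other rows. The family thus stood between these groups by number of well-counted rows, with its highest row at 342 CPM against 61.1 CPM for the highest other cattle-numbered miRNA.

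**Figure D1:**
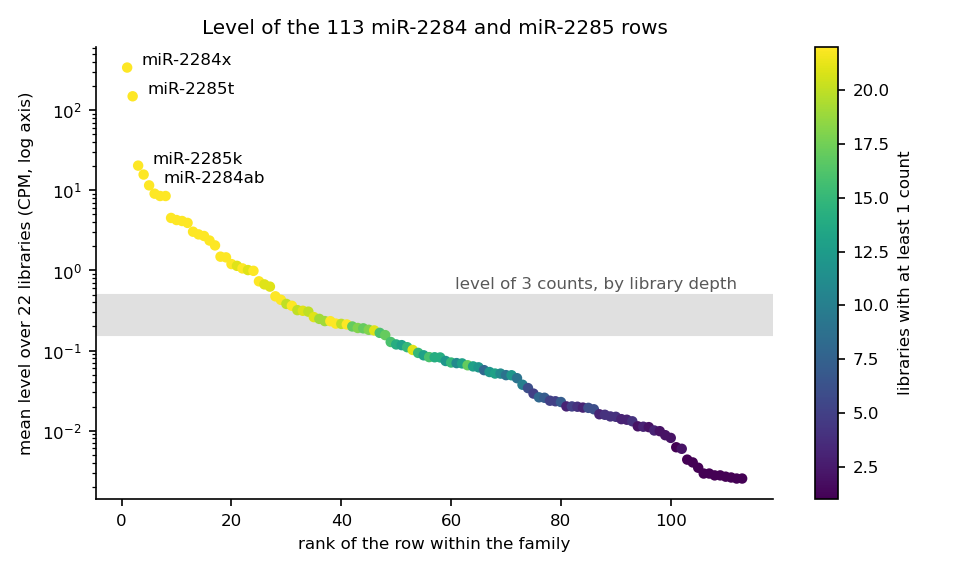
Mean level of each of the 113 family rows over the 22 libraries, in CPM on a log axis, against its rank within the family. The colour gives the number of libraries with at least 1 count, and the grey band spans the level of 3 counts, 0.159 to 0.493 CPM. MiR-2284x and miR-2285t stand above 100 CPM, and most rows below the band were missed in many libraries.

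The number of family rows with a count varied between libraries from 47 to 80. In HOLS CONT 95 rows were counted in at least 1 library and 48 in every library, and in HOLS REST 99 and 50. In MONT CONT these numbers were 90 and 38, and in MONT REST 96 and 36. The library with the fewest rows, MONT CONT of cow 5663 with 47, was also the one with the lowest total of 6087865 counts. At somewhat higher totals the HOLS CONT library of cow 2182 had 62 rows at 7431936 counts. MONT CONT of cow 1613 had 61 rows at 7266501 counts, and MONT REST of cow 9615 had 48 at 7817027. Absence from a breed rested on very few counts: 8 rows were counted in HOLS alone, none above 2 counts in a library, and 8 in MONT alone, none above 1 count. These rows do not show a member that a breed lacks, since all counts lay under the limit of 3 that a count of 0 allows.

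Arm-named rows were all minor. MiR-2284h-5p was the highest with 0.732 CPM and the only one counted in each of the 22 libraries, with 2 to 18 counts. MiR-2285ak-5p had 0.383 CPM, miR-2285aj-5p 0.320 CPM and miR-2285am-5p 0.200 CPM, and miR-2285al-5p, miR-2285ag-3p and miR-2285ah-5p were below 0.1 CPM. MiR-2284t was the one member listed with both arms, 0.306 CPM for the 3p arm and 0.0160 CPM for the 5p arm.

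Rows with shared counts had to be known before any change was counted. MiR-2285q and miR-2285z had the same count in each of the 22 libraries, from 45 to 173 and 2199 in all, so they are 1 measurement under 2 names. A further 11 family rows (miR-2284g, miR-2284j, miR-2285ap, miR-2285az, miR-2285bw, miR-2285ci, miR-2285cs, miR-2285cw, miR-2285cy, miR-2285da and miR-2285di) equalled another row, but only because each had 1 count in 1 library, as did rows outside the family in the same library. Of the 113 rows, 106 matched a gene name in RefSeq (assembly ARS-UCD2.0), which lists 191 genes of the family under 138 names. The RefSeq genes of miR-2285q and miR-2285z overlap each other, and both overlap SREK1, a gene of a splicing factor.

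Several other pairs moved almost in step without being identical. Pairs were compared over the 30 family rows with at least 100 counts in all, by Pearson's r of log2 CPM across the 22 libraries, which include pairs of libraries from the same cow. The median r of the 435 pairs was 0.13, and 6 pairs exceeded 0.9, among them the identical miR-2285q and miR-2285z. MiR-2284z and miR-2285y (r = 0.984) kept a ratio of counts between 7.09 and 8.21 in every library, and miR-2285g and miR-2285af (r = 0.993) a ratio between 1.33 and 1.67. MiR-2285dh resembled both miR-2285af (r = 0.910) and miR-2285g (r = 0.903), and miR-2285o resembled miR-2284h-5p (r = 0.961). The ratio of miR-2285o to miR-2284h-5p was less fixed, from 4.46 to 11, with 2 to 18 counts of miR-2284h-5p. Its r was taken over both breeds, and both rows had a higher mean in HOLS. RefSeq places a gene of miR-2284z over that of miR-2285y and a gene of miR-2285o over that of miR-2284h, whereas the listed genes of miR-2285g and miR-2285af do not overlap and miR-2285dh had no match. Overlap went with likeness in most but not all pairs. MiR-2284y overlaps miR-2285u (r = 0.889) and, at another of its genes, miR-2285o (r = 0.046), and miR-2285o overlaps miR-2285av (r = 0.561). How the authors counted reads that fit several members is not given in the sources used here, so the split of counts within these pairs is uncertain.

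**Figure D2:**
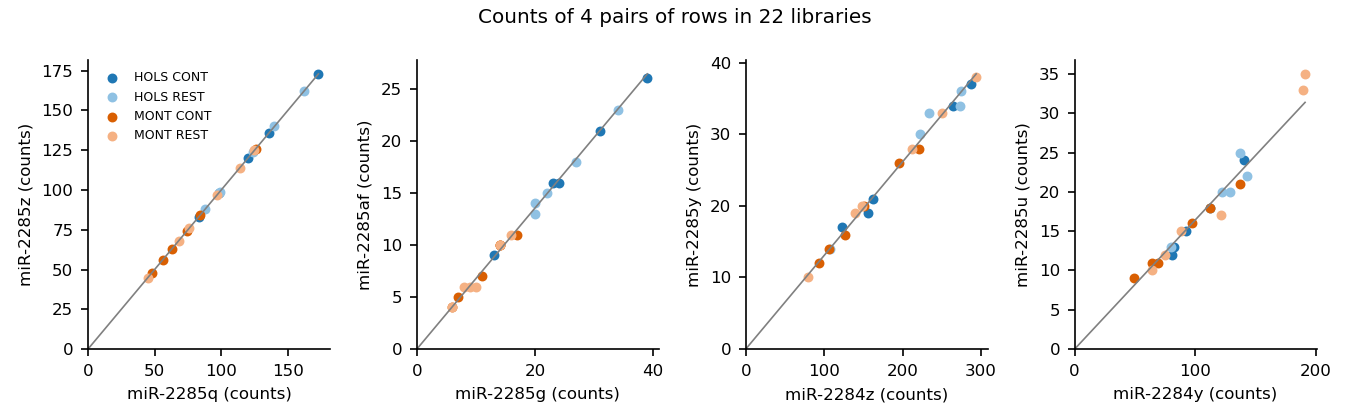
Counts of both rows of 4 pairs in each of the 22 libraries, coloured by breed and period, with a line at the ratio of their totals. The points of miR-2285q and miR-2285z are equal, and those of the other 3 pairs stay near one line in all groups.

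Both leading rows match a single RefSeq gene each. That of miR-2284x overlaps TIAM1, an activator of the GTPase Rac, and that of miR-2285t overlaps FCGR2B, an Fc receptor of immune cells. The gene of miR-2284ab overlaps AFF1, a transcription elongation factor, and that of miR-2285bm overlaps ESRRG, a nuclear receptor. Of the matched rows 84 had 1 gene and 22 had 2 or more, up to 7 for miR-2284y, miR-2284z and miR-2285n, whose counts cannot be assigned to a locus. Rows with a single gene held 89.4% of the family counts. Of the 191 family genes 65.4% overlap a protein-coding gene, against 66.1% of the 841 other miRNA genes listed.

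The first question of the design was whether feed restriction changed mammary miRNAs, and the answer for the family sum depended on the scaling in HOLS. The summed family level was 636 ± 110 CPM (SD, n = 5) in HOLS CONT and 622 ± 87.2 CPM in HOLS REST, and 598 ± 61.5 CPM (n = 6) in MONT CONT and 601 ± 48.6 CPM in MONT REST. Within cows, the sum of REST minus that of CONT, as log2(CPM + 1), was -0.028 ± 0.061 in HOLS and above 0 in 1 of 5 cows. In MONT it was 0.0092 ± 0.091 and above 0 in 3 of 6 cows. With TMM the mean changes were smaller than their spread between cows in both breeds. With library size only the change in HOLS was -0.18 ± 0.081 and above 0 in 0 of 5 cows, while the median log2 fold change of all rows tested also went from 0.02 to -0.15, and in MONT it was -0.042 ± 0.23 and above 0 in 2 of 6 cows. The sum is mostly miR-2284x: without that row, with TMM, the mean change was -0.11 ± 0.11 in HOLS, above 0 in 0 of 5 cows, and -0.23 ± 0.33 in MONT, above 0 in 1 of 6 cows.

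The 2 leading rows had mean changes of opposite sign in both breeds, and neither passed the test. MiR-2284x in HOLS had 307, 304, 326, 318 and 405 CPM in the CONT libraries of cows 1165, 8200, 9195, 1155 and 2182, and 309, 284, 367, 352 and 394 CPM in their REST libraries. In MONT its lowest, median and highest levels were 286, 332 and 347 CPM in CONT and 312, 370 and 440 CPM in REST. The periods overlapped in both breeds, but with TMM each of the 6 MONT cows had more in REST, by 0.19 ± 0.096 on the log2 scale, against 0.037 ± 0.12 in HOLS. As a share of library counts MONT cow 2614 had less in REST, 6849 of 18913916 counts against 4273 of 10532443 in CONT. That share hardly changed in cow 9615. The fold change of REST over CONT on the log2 scale was 0.07 (95% interval -0.19 to 0.33) in HOLS, where it turned to -0.11 with library size in place of TMM, and 0.18 (-0.049 to 0.41) in MONT.

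MiR-2285t differed far more between cows than between periods in HOLS. Its CONT levels were 140, 144, 192, 91.6 and 268 CPM in the same order of cows, and its REST levels 127, 135, 145, 90.0 and 243 CPM. Cow 2182 was the highest and cow 1155 the lowest both times, and all 5 cows had less in REST, by 0.16 ± 0.14 on the log2 scale. In MONT the lowest, median and highest levels were 62.9, 164 and 261 CPM in CONT and 64.9, 111 and 220 CPM in REST. There 5 of 6 cows had less in REST, while cow 9615 went from 62.9 to 105 CPM. The log2 fold changes were -0.15 (-0.73 to 0.43) in HOLS and -0.45 (-1.09 to 0.18) in MONT, with adjusted p of 0.844 and 0.462 by edgeR's quasi-likelihood test. This fit leaves the differences between cows in the error. With the cow as a block the log2 fold changes were -0.14 and -0.42, with adjusted p of 0.319 and 0.373 by edgeR.

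**Figure D3:**
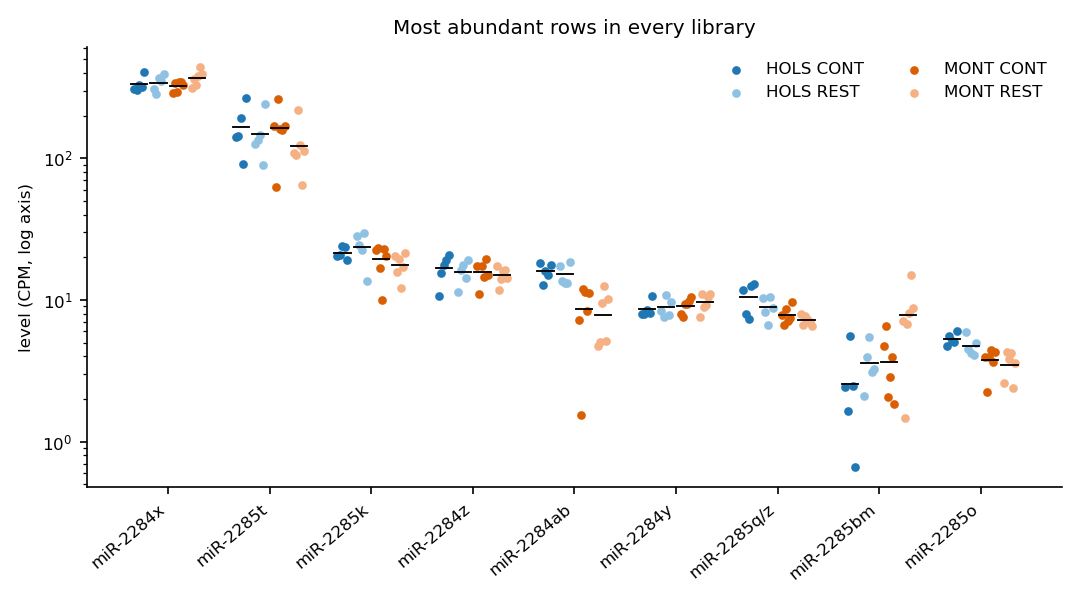
Level of the most abundant family rows in every library, in CPM on a log axis, by breed and period, with a line at the mean of each group. MiR-2285q and miR-2285z share their counts and are drawn once. The periods overlap in every row, and miR-2284ab and miR-2285bm show the widest spread within MONT.

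No family row passed the test of REST against CONT in either breed. In HOLS 26 family rows passed the filter on low counts, 0 were called at an adjusted p of 0.05 and 0 had an unadjusted p under 0.05, where 2.41% of all 374 rows tested were called and 23.3% had an unadjusted p under 0.05. In MONT 0 of 21 family rows were called and 2 had an unadjusted p under 0.05, where 0% of all 349 rows were called and 13.5% had such a p. DESeq2 called 0 family rows in each breed too, where of all rows it called 8 higher and 19 lower in HOLS and 0 in MONT. The median log2 fold change of the tested members was -0.05 in HOLS, against 0.02 for all rows, and -0.09 in MONT, against -0.01. The rows tested count miR-2285q and miR-2285z as 2. With identical rows kept once the medians were -0.05 in HOLS, against 0.02, and -0.02 in MONT, against 0.04. With the cow as a block 16.3% of all rows tested in HOLS were called, 8.02% higher and 8.29% lower, and 0 of the 26 family rows. No family row had CPM without overlap between the periods in either breed, where 1.34% of all rows in HOLS were so higher and 6.15% lower in REST, and 0.287% higher and 0% lower in MONT.

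The 5 highest fold changes in HOLS were those of miR-2285bm (0.45 on the log2 scale), miR-2285e (0.33), miR-2285bd (0.27), miR-2284w (0.26) and miR-2285bl (0.19). The 5 lowest were those of miR-2285dh (-0.32), miR-2284h-5p (-0.28), miR-2285af (-0.27), miR-2285g (-0.26) and the shared row of miR-2285q and miR-2285z (-0.21). Their standard errors were between 0.14 and 0.56, and the lowest adjusted p among all 26 members was 0.282, that of miR-2284w, by edgeR. With TMM miR-2284w had more in REST in 5 of 5 HOLS cows, from 3.29, 3.17, 3.29, 4.04 and 3.70 CPM in CONT to 3.87, 4.11, 4.24, 4.24 and 4.01 CPM in REST. As a share of library counts it was lower in REST in cows 1165 and 1155. Cow 1165 had 38 of 10786816 counts in CONT and 37 of 11108829 in REST, and cow 1155 had 56 of 13424525 and 66 of 17771835.

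In MONT miR-2285bm had the highest fold change, 1.11 on the log2 scale (0.30 to 1.93), with an adjusted p of 0.314 by edgeR. Its lowest, median and highest levels were 1.83, 3.43 and 6.52 CPM in CONT and 1.48, 7.59 and 15.0 CPM in REST. The periods overlapped through a single cow: 5 of 6 cows had more in REST, while cow 9615 went from the highest CONT level, 6.52 CPM, to the lowest REST level, 1.48 CPM. Without cow 9615 the log2 fold change was 1.55 with an adjusted p of 0.015, and miR-2285bm was then the 1 family row called. In the same cow miR-2285t also moved against the other 5, and across all rows tested the deviations of its 2 libraries from the means of their periods correlated at -0.33, against 0.071 to 0.76 in the other MONT cows.

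After miR-2285bm, the highest fold changes in MONT were those of miR-2285bl (0.38), miR-2285bd (0.22), miR-2285e (0.19) and miR-2284x (0.18). The lowest were those of miR-2285dh (-0.64), miR-2285ba (-0.51), miR-2285aa (-0.49), miR-2285t (-0.45) and miR-2284ab (-0.18). Of these, miR-2285aa had less in REST in 6 of 6 cows, by 0.46 ± 0.28 on the log2 scale, with an adjusted p of 0.355 by edgeR. MiR-2285bm, miR-2285e, miR-2285bd and miR-2285bl were among the 5 highest and miR-2285dh was the lowest in both breeds, as values that did not pass the test. Within cows the directions were mixed. Of 5 HOLS and 6 MONT cows, miR-2285bm had more in REST in 3 and 5, and miR-2285e in 2 and 2. For miR-2285bd these numbers were 4 and 3, and for miR-2285bl 2 and 4. MiR-2285dh had less in REST in 4 HOLS and 4 MONT cows.

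**Figure D4:**
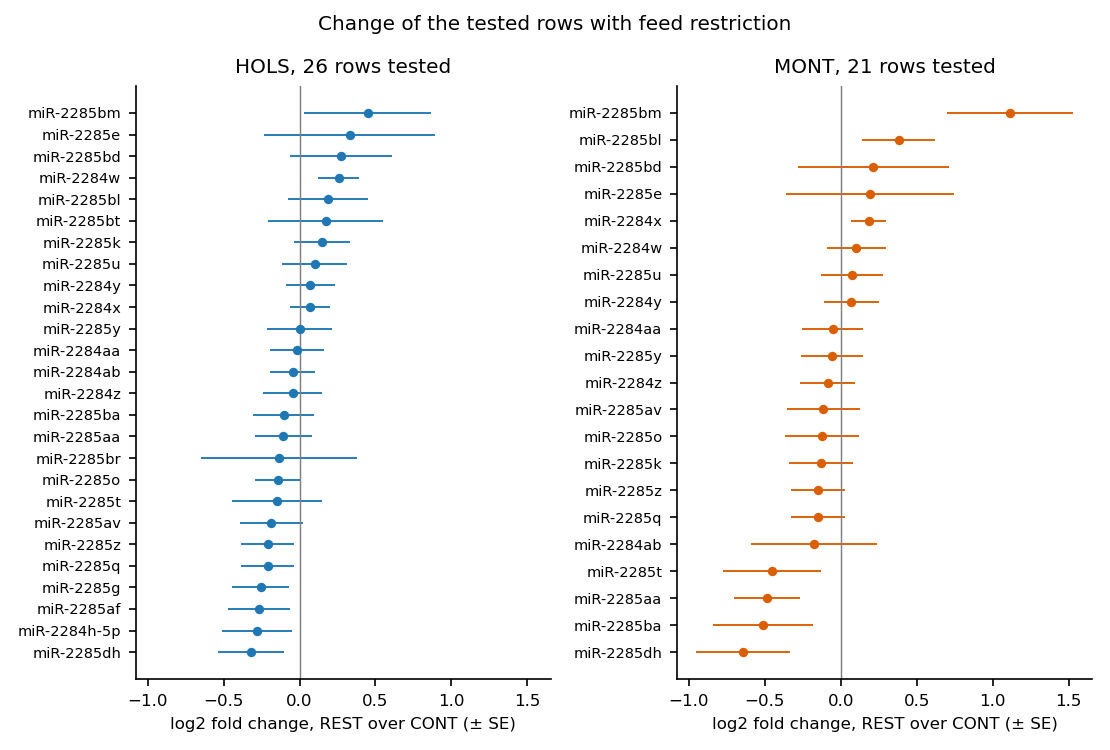
Log2 fold change of REST over CONT with its standard error for the 26 family rows tested in HOLS and the 21 tested in MONT, from edgeR. No row was called in either breed, and miR-2285bm in MONT lies farthest from 0 at 1.11.

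The change did not detectably differ between the breeds for any member. Of 27 family rows tested for the interaction of breed and period, 0 were called and 0 had an unadjusted p under 0.05, where 0% of all 388 rows were called and 0.773% had such a p, and DESeq2 called 0. The widest difference, HOLS minus MONT, was that of miR-2285bm, -0.67 on the log2 scale with an interval of -1.92 to 0.58. With the cow as a block it was -0.54, with an adjusted p of 0.985 by edgeR. Intervals of this width do not show that the breeds responded alike.

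The second question was whether the breeds differed, and here 5 family rows were higher in HOLS than in MONT in REST. They were miR-2285dh, miR-2285g, miR-2285ba, miR-2285af and miR-2284ab, 5 of the 26 members tested (19.2%), and none was called lower. An unadjusted p under 0.05 was found for 8 members (30.8%), against 33.1% of all rows. Of all 378 rows tested, 15.3% were called, with 5.56% higher and 9.79% lower in HOLS. The share of family rows called in either direction was near that of all rows, whereas the direction of these few calls was not. Among all calls 21 of 58 (36.2%) were higher in HOLS, 24.1% with library size in place of TMM and 46.1% with DESeq2. DESeq2 called 7 members, of which miR-2285bm was lower in HOLS. MiR-2285g and miR-2285af keep an almost fixed ratio of counts, so the 5 calls are not 5 separate measurements. MiR-2285dh resembles both less closely, with count ratios of 1 to 2.35 to miR-2285g and 1.5 to 3.39 to miR-2285af. Its r with them was taken over both breeds and so includes the breed difference.

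MiR-2284ab was the most abundant of them. Its HOLS levels in REST were 17.5, 13.6, 13.2, 13.2 and 18.4 CPM in cows 1165, 8200, 9195, 1155 and 2182, and its lowest, median and highest MONT levels were 4.71, 7.34 and 12.4 CPM. With TMM the breeds did not overlap in REST or in CONT, where MONT cow 9615 had the lowest level of all at 1.54 CPM. As a share of library counts they overlapped in both periods. In REST HOLS cow 1155 had 206 of 17771835 counts and MONT cow 1640 had 164 of 11759650. In CONT HOLS cow 8200 had 132 of 10524519 and MONT cow 2614 had 146 of 10532443. The log2 fold change in REST was 0.92 with an SE of 0.27 and an adjusted p of 0.031 by edgeR. This call held in 5 of the 11 fits that left out a cow, the adjusted p reaching 0.077, and the fold change lay between 0.79 and 1.11. It was also lost with library size in place of TMM (adjusted p = 0.090 by edgeR).

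MiR-2285ba had 4.18, 4.75, 3.10, 2.76 and 3.66 CPM in HOLS REST and a lowest, median and highest level of 0.890, 1.18 and 2.81 CPM in MONT REST. Only MONT cow 2614, with 2.81 CPM, reached into the HOLS range. The log2 fold change was 1.31 (SE 0.29), with an adjusted p of 0.014 by edgeR.

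MiR-2285dh had the lowest adjusted p of the family, 0.0085 by edgeR, at a log2 fold change of 1.26 (SE 0.23). Its REST levels were 2.82, 2.76, 3.03, 3.92 and 2.25 CPM in HOLS and 0.885, 1.26 and 1.52 CPM as the lowest, median and highest in MONT. Every HOLS library lay above every MONT library in REST, and also in CONT, where HOLS had 3.04 to 5.19 CPM and MONT 0.830 to 2.73 CPM. MiR-2285g and miR-2285af also did not overlap in REST, with 1.41 to 2.09 against 0.683 to 1.01 CPM and 0.985 to 1.36 against 0.455 to 0.707 CPM. Their log2 fold changes were 1.01 (SE 0.22) and 0.99 (SE 0.23), with adjusted p of 0.011 and 0.015 by edgeR.

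With TMM 4 tested members in all lay without overlap higher in HOLS than in MONT in REST, and 0 lower. Of all rows 5.03% did so higher and 2.91% lower. As a share of library counts miR-2284ab was not among these members. The calls of miR-2285dh, miR-2285ba, miR-2285g and miR-2285af held in all 11 fits without a cow. That of miR-2285af was lost without the filter on low counts (adjusted p = 0.056 by edgeR), and DESeq2 called all 5 rows together with miR-2285aa, higher in HOLS, and miR-2285bm, lower in HOLS. Of all 378 rows DESeq2 called 41 higher and 48 lower in HOLS.

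In CONT the same rows pointed the same way with less certainty. Of 24 family rows tested 0 were called, where 0.556% of all 360 rows were, and 7 had an unadjusted p under 0.05 (29.2%), all higher in HOLS, against 20.3% of all rows. DESeq2 called 1, miR-2285ba, where of all 360 rows it called 9 higher and 11 lower in HOLS. With TMM 5 members were higher in HOLS without overlap, miR-2285dh, miR-2284h-5p, miR-2285o, miR-2285ba and miR-2284ab. Of all rows 3.61% were so higher and 0% lower. As a share of library counts miR-2284ab, miR-2285o and miR-2285ba overlapped. HOLS cow 9195 had 84 and 49 of 16808976 counts for miR-2285o and miR-2285ba, and MONT cow 2614 had 56 and 38 of 10532443. MiR-2285o and miR-2284h-5p resemble each other (r = 0.961), so they may not be separate measurements. The lowest adjusted p by edgeR was 0.061, that of miR-2284h-5p, which had 1.11 ± 0.11 CPM in HOLS and 0.51 ± 0.15 CPM in MONT. Log2 fold changes in CONT were 0.95 for miR-2285dh, 0.93 for miR-2285ba, 0.82 for miR-2284ab and 0.74 for miR-2285g and for miR-2285af. The CONT and REST comparisons use the same cows, so they are not independent, and the interaction of these 5 rows had adjusted p of 0.991 by edgeR.

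**Figure D5:**
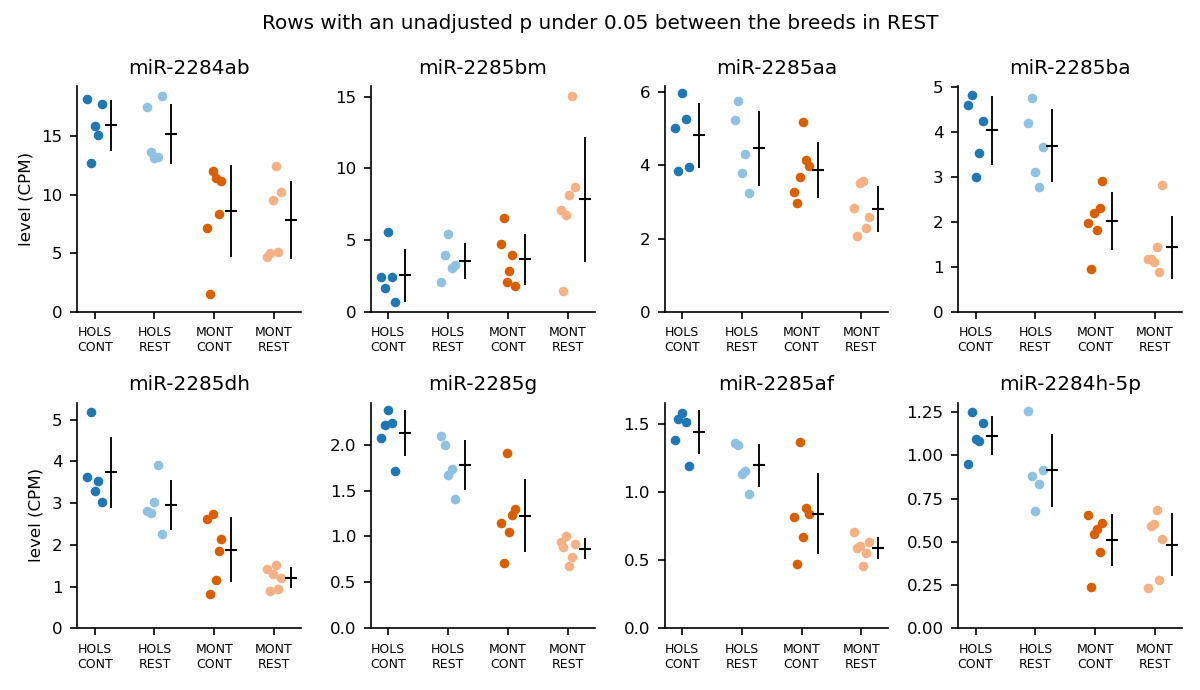
Level in CPM of the 8 family rows with an unadjusted p under 0.05 between the breeds in REST, in every library by breed and period, with the mean and SD of each group beside its points. MiR-2285bm is higher in MONT and the other rows are higher in HOLS, 4 of them without overlap in REST with TMM.

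Neither leading row shared this pattern. Over both periods miR-2284x had 337 ± 40.9 CPM in the 10 HOLS and 346 ± 43.2 CPM in the 12 MONT libraries, and miR-2285t 158 ± 59.2 and 143 ± 59.0 CPM. These SD are over libraries, with both periods of each cow, so they do not measure the spread between cows alone. The median log2 fold change of HOLS over MONT among tested members was 0.14 in CONT and 0.27 in REST, against -0.01 and -0.03 for all rows. With identical rows kept once it was 0.08 in CONT and 0.27 in REST, against -0.02 and -0.03. Other values moved with breed as well. The summed level of the 9 epithelial markers counted was 31724 to 60182 CPM in HOLS REST and 16086 to 34508 CPM in MONT REST, and 41456 to 50570 against 20705 to 50590 CPM in CONT. That of the smooth muscle markers miR-143 and miR-145 was 217627 to 287804 CPM in HOLS REST and 210749 to 461565 CPM in MONT REST. Of the 9 epithelial markers, 2 were called higher and 1 lower in HOLS in REST, and 0 of 2 smooth muscle markers were called. The summed level of the endothelial markers, both arms of miR-126, was 30159 to 42622 CPM in HOLS REST and 18583 to 30228 CPM in MONT REST, so that the ranges hardly overlapped, and 1 of the 2 was called higher in HOLS. None of the markers of leukocytes, red blood cells or skeletal muscle was called between the breeds in REST. The part of these differences in the results of the family was not tested, and breed cannot be told apart from anything else that differed between these 5 and 6 cows or their libraries. This includes library quality, since the paper reports more short reads and adapters and a lower share of clean reads in MONT.

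Part of the variation of the family followed the cow. Likeness of the 2 libraries of a cow was measured by the intraclass correlation of log2 levels across cows, near 1 where cows keep their own level and near or below 0 where they do not. Its median over the tested members was 0.56 in HOLS, against 0.37 over all 374 rows tested, and 0.31 in MONT, against 0.25 over all 349. MiR-2285t in HOLS had the highest value, 0.96, and miR-2284x had 0.79 in HOLS and 0.80 in MONT. By contrast miR-2285bm had 0.29 in HOLS and -0.49 in MONT.

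MiR-2285e separated single cows from the rest of their breed. Cow 1165 had 0.0865 CPM (1 count) in CONT and no count in REST, where 3 counts would be 0.270 CPM before TMM scaling, while the other 4 HOLS cows had 0.67 to 1.06 CPM in CONT and 0.84 to 1.09 CPM in REST. In MONT cow 1652 had 0.18 CPM (2 counts) and 0.17 CPM (3 counts), while the other 5 had 0.71 to 2.13 CPM in CONT and 1.03 to 2.12 CPM in REST. Low cows were thus found in both breeds and stayed low in both periods. The intraclass correlation of this row was 0.90 in HOLS and 0.84 in MONT.

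Over the 22 libraries, the rows most like miR-2284x by Pearson's r of log2(CPM + 1), among 419 rows with at least 100 counts in all, were miR-2284y (r = 0.693), miR-328 (0.691), miR-2285u (0.662), miR-410 (0.641) and miR-154c (0.620). Libraries of the same cow are among the 22, so these values describe the libraries rather than 22 independent animals. MiR-2284y and miR-2285u are the overlapping pair described above, and the other 3 rows are not members.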

How the data were processed

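Counts of mature miRNAs were taken as deposited. The authors prepared TruSeq small RNA libraries, trimmed adapters, kept reads by size, quantified them with ncPRO-seq, and identified miRNAs with miRDeep2 against the bovine genome and miRBase. The submitters' processing notes name bcl2fastq 2.17.1.14 and DESeq2 1.18.1. The deposited counts per miRNA and library are not normalized, and the deposited normalized values, a signal, are counts divided by DESeq2 size factors within each breed, which were matched here to a relative difference of 8.4e-10 and not used further. Columns with the authors' own fold changes and p-values were not used.

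Both tables were joined by name. Counts of all rows were tested with edgeR 4.0.16 (R 4.3.3): TMM, filterByExpr with a minimum count of 10, quasi-likelihood F test, Benjamini-Hochberg adjustment over all rows tested and a threshold of 0.05. REST was compared with CONT within each breed, the breeds within each period, and breed by period over all 22 libraries. Fold changes are from the counts, and their 95% intervals are the estimate ± 1.96 SE. For REST against CONT and the interaction these intervals are from the fit without the cow as a block. They do not measure the uncertainty of the change within cows. Changes of single rows within cows use a pseudocount of 0.1 CPM and those of the sum 1 CPM. Alternatives were DESeq2 1.42.0, its size factors in edgeR, library size only, no filter, identical rows kept once, the cow as a block and each cow left out. DESeq2 with the block was added after seeing the data. Steps were tested on simulated counts.

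Libraries of the same number come from the same cow, per the labels. Deviations from the period means correlated within cows at 0.25 to 0.53 in HOLS and 0.071 to 0.76 in 5 MONT cows, and at -0.33 in cow 9615. The fit without the block follows the study's methods. The cow is the replicate, and limits of counting cover counting error only.

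The members and lists were chosen with earlier results of these data known. Named rows are the 10 most abundant, rows called in any test, the 5 highest and 5 lowest fold changes in each breed, rows with counts equal to another row, and rows with an arm suffix. Rows singled out for their cows, overlap, likeness or unadjusted p were chosen after their values were seen. RefSeq was used for names and overlap only, since its assembly differs from that of the authors. Overlap means shared positions on a chromosome, and strand was not compared.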

Additional observations from a re-analysis of the deposited data

Results flagged for a closer look

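In 6 of 84 groups tested, 1 library lay far from the others of its group by Dixon's criterion, where chance alone would give about 4.2. In HOLS CONT cow 2182 had 405 CPM of miR-2284x, with the other 4 cows at 304 to 326 CPM, and 10.7 CPM of miR-2284y, with the others at 7.89 to 8.52 CPM. In HOLS CONT cow 8200 had 5.19 CPM of miR-2285dh, with the others at 3.04 to 3.63 CPM. In HOLS REST cow 1165 had 0 CPM of miR-2285e, with the others at 0.84 to 1.09 CPM. In MONT CONT cow 9615 had 2.25 CPM of miR-2285o, with the others at 3.62 to 4.41 CPM. In MONT REST cow 2614 had 2.81 CPM of miR-2285ba, with the others at 0.890 to 1.44 CPM.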

How the results depend on the processing

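REST against CONT gave 0 family rows in both breeds and 0 for the interaction under each alternative run, with the exception of MONT with a cow left out (0 to 1, the 1 being miR-2285bm without cow 9615). The fits with the cow as a replicate block, by edgeR and by DESeq2, changed no family call, although over all rows in HOLS edgeR called 9 without and 61 with the block. Between the breeds in CONT DESeq2 called 1 family row where edgeR called 0. Over all 360 rows it called 9 higher and 11 lower in HOLS, and edgeR 2 higher and 0 lower. In REST the fits without a cow called 4 to 6, library size only and no filter 4 each, and DESeq2 7, which added miR-2285aa and miR-2285bm. Over all rows library size only called 13 higher and 41 lower of 378. No filter called 18 and 37 of 761, and DESeq2 41 and 48 of 378. MiR-2285af was not called without the filter. MiR-2284ab was not called with library size only, nor without cow 1165, 1652, 2182, 5663, 8200 or 9195.

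Library size only moved the median log2 fold change of all rows from 0.02 to -0.15 for REST against CONT in HOLS and from -0.03 to -0.15 for HOLS against MONT in REST. It took the change of the family sum in HOLS to -0.18, that of miR-2284x in HOLS to -0.11, that of miR-2285k in HOLS to -0.033 and the interaction of miR-2284ab to -0.0070, which the block took to -0.011. Without miR-2284x the sum changed by -0.11 in HOLS and -0.23 in MONT. With at least 10 counts in a library, 34 family rows were detected. With each cow left out in turn, fold changes lay between -0.026 and 0.12 for miR-2284x in HOLS, -0.037 and 0.26 for miR-2285bl in HOLS, -0.066 and 0.35 for miR-2285e in MONT and -0.022 and 0.19 for the interaction of miR-2284ab. None of these fold changes passed the threshold. Depth limits the 79 rows that never reached 10 counts, none of which passed the filter.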
